A study of Mus musculus with 2 samples.

Results

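The genes described are the 47 that encode the DNA replication machinery of the mouse: the proteins that mark and license origins, open the duplex, copy both strands, join the fragments and restore chromatin behind the fork. They were chosen by name from a fixed list, each taken at its most abundant transcript row, out of 24013 gene symbols in the deposited table. All 47 were found, and all 47 passed the minimum mean of 50 normalized counts that 10518 genes reached. They were measured by RNA sequencing of CD8+ T cells from the spleen of C57BL/6 mice, in 1 library from DGKζ-deficient (DGKζ-/-) mice aged 6 weeks and 1 library from wild-type mice aged 7 weeks. DGKζ, diacylglycerol kinase ζ, removes the second messenger diacylglycerol and so limits signalling from the T cell receptor to Ras. In both groups naive cells were purified with a commercial kit and then kept for 24 hours on immobilised anti-CD3 and anti-CD28. The labels give neither the number of animals behind a library nor the part of the gene that is deleted.

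Replication is prepared in G1, when the origin recognition complex, CDC6 and CDT1 load the MCM helicase onto DNA as an inactive ring. At the start of S phase the kinase CDC7 with its activator DBF4 and the factors MCM10, CDC45 and GINS turn the ring into a moving helicase. Many of these genes are targets of the E2F transcription factors, and a naive T cell induces them when it leaves quiescence after receptor stimulation. In RNA from a whole culture, a difference in the number of cells in S phase and one in RNA per cell cannot be told apart.

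Replication genes were close to equal in both libraries. Of the 47 members, 25 had a level in DGKζ-deficient cells within 10% of that in wild-type cells, against 38.6% of all genes compared. This count holds for the authors' scaling and was not repeated under another scaling or beside well-expressed genes alone. The log2 ratio, log2((DGKζ-deficient + 10)/(wild type + 10)) of normalized counts, ran from -0.23 for Cdt1 to 0.44 for Dbf4, with a median of 0.089 and quartiles at 0.023 and 0.18. For all 10518 genes the median was 0.055 with quartiles at -0.14 and 0.22. A gene was counted as different where its level, on the scale of the log2 ratio, was at least 25% higher in 1 library than in the other. By this measure 1 member differed, Dbf4, against 26.6% of all genes compared. At 1.5-fold 0 members differed, against 9.59% of all genes, and at 2-fold 0 members, against 2.60% of all genes. The members are well expressed, and among the 6822 genes that averaged 500 normalized counts or more 21.2% differed by 25%. With 1 library per genotype there is no replicate check and no test. Intervals given with a fold are exact 95% intervals. They hold counting error alone under the authors' scaling and do not cover the choice of scaling, and since the labels name no molecular identifiers, PCR copies of 1 molecule count as separate reads.

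Most members lay slightly above 0. The log2 ratio was above 0 for 36 of 47 members, against 58.2% of all genes and 63.5% of genes averaging 500 or more. That direction depends on how the libraries are scaled. With both libraries scaled to equal totals every member moved down by about 0.089, the median became -0.00016 and 23 members were above 0, against 44.8% of all genes. Over 3 scalings (the authors' size factors, equal totals, and recentring on the median gene), 23 members were above 0 in each, 11 were below 0 in each, and 13 changed sign. The 13 are Orc3, Orc5, Mcm3, Mcm6, Mcm7, Gins1, Gins2, Pcna, Rfc2, Rfc4, Lig1, Uhrf1 and Dnmt1, all above 0 as deposited and below 0 at equal totals. The 47 genes took 1.17% of reads in the DGKζ-deficient library and 1.18% in the wild-type library, a share that needs no size factor. Reads were summed here, and for equal totals, over the 1 row kept per gene.

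**Figure D1:**
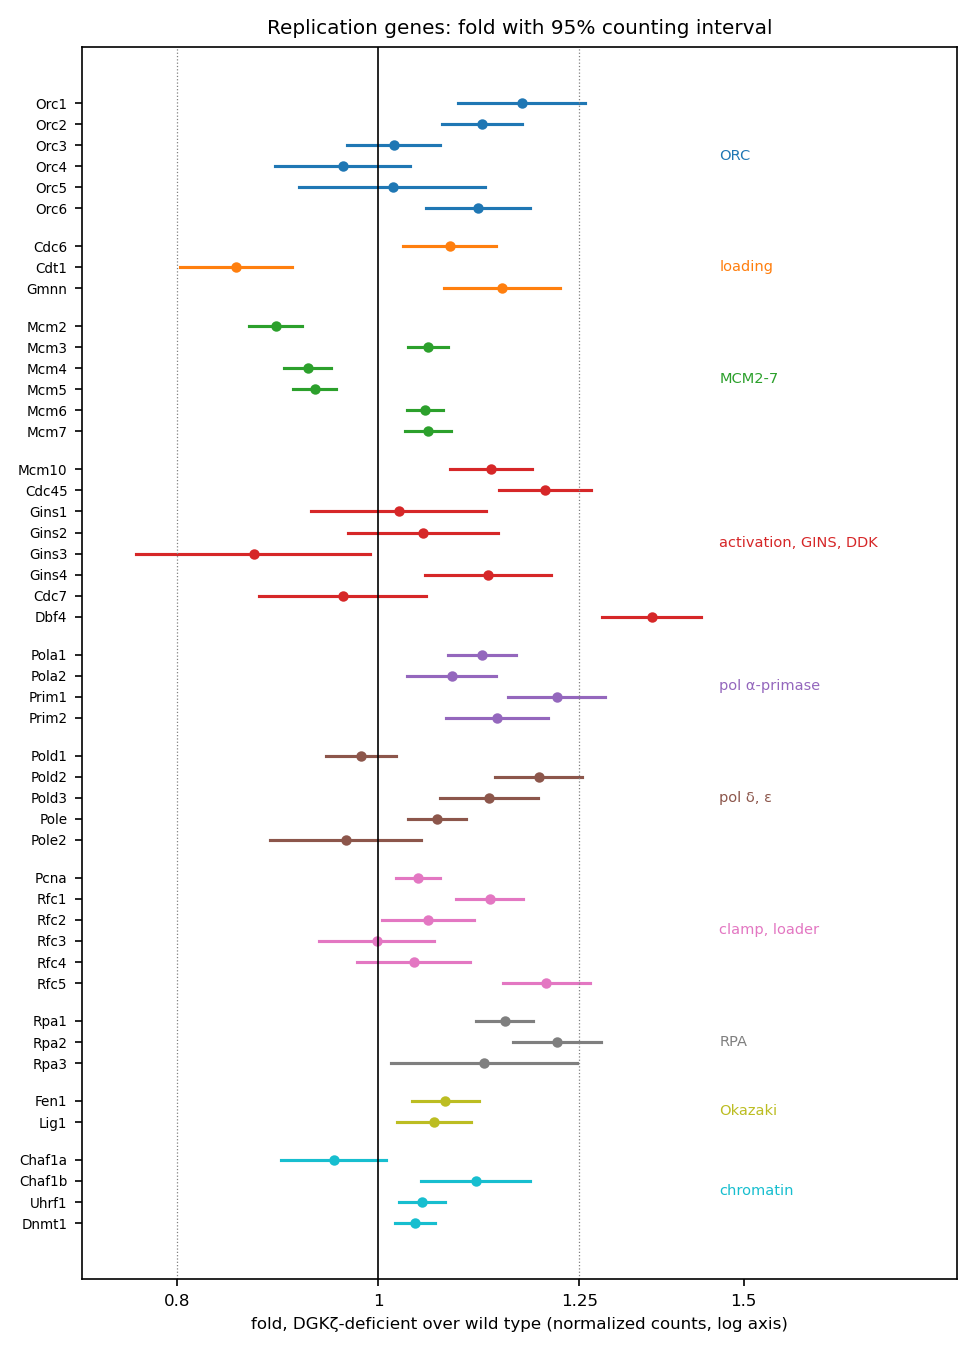
Fold of each of the 47 replication genes in DGKζ-deficient over wild-type cells on a log axis, with 1 library per genotype. Points are folds of normalized counts, bars are 95% counting intervals, dotted lines mark a level 25% above the wild type and its reciprocal, and colours mark role groups. Dbf4 at 1.35 is the only point beyond them, and Cdt1 at 0.854 is the lowest point.

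Promoter sequence was not used to choose the members, and many of them held an E2F string there. RefSeq promoter windows (build GRCm38.p6, 250 bases before to 50 after a start) were at hand for 39 of the 47 members, 9 of them with several windows. The letter strings of the E2F site TTTCCCGC, TTTCGCGC, TTTGCCGC and TTTGGCGC were searched on both strands. At least 1 of them was found in 17 of the 39 members (43.6%), against 2.60% of all 27025 genes with a window and 5.19% of the 7933 such genes among those compared. The CCAAT box (CCAAT, both strands) was in 61.5% of members, against 41.1% of all genes with a window and 43.4% of the compared genes. The CHR element of late cell cycle genes (TTTGAA or TTCGAA, both strands) was in 25.6% of members, against 21.7% of all genes with a window and 15.9% of the compared genes. A match describes letters and shows no binding.

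Windows of 6 members are printed because their genes span the range of the results, from Dbf4, the highest, to Cdt1, the lowest in log2 ratio, with Cdc6 and 3 helicase subunits between. Each runs 5′ to 3′ along the gene's strand, with E2F strings in capitals.
Dbf4: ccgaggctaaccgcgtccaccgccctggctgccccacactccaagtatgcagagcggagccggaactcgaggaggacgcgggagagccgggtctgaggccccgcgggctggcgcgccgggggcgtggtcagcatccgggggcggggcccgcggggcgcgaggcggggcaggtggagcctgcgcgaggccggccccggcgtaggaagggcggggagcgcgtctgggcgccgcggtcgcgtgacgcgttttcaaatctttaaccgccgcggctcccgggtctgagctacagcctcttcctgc
Cdc6: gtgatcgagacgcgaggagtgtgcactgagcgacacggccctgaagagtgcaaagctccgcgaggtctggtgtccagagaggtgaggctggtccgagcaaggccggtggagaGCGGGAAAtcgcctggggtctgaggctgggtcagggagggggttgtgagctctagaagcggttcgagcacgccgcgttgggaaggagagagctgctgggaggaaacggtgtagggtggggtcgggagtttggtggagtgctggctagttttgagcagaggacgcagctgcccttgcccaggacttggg
Mcm3: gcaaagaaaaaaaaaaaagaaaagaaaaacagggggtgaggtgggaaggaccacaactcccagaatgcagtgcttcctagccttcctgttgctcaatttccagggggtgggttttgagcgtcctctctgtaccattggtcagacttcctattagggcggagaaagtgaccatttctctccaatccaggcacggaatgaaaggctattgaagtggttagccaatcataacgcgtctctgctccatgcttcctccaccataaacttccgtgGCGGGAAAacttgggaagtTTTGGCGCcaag
Mcm6: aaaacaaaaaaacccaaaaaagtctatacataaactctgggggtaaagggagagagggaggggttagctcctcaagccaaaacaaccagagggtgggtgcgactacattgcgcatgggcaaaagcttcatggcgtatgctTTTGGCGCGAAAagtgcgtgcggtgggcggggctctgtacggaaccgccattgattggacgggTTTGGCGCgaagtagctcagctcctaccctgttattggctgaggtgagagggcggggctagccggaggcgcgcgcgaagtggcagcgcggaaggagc
Mcm5: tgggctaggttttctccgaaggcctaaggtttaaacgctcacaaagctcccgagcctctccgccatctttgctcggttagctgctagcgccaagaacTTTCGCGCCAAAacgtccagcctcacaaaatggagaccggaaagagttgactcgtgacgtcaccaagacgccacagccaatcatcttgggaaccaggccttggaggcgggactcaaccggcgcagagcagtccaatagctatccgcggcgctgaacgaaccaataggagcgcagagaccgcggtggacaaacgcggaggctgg
Cdt1: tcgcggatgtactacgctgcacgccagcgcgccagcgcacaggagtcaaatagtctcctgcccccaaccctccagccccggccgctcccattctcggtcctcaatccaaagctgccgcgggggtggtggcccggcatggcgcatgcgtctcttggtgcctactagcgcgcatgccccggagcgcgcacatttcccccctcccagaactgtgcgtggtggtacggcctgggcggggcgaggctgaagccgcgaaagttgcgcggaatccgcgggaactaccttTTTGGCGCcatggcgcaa

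In GRCm38.p6 the Dbf4 window is chr5:8422667-8422966 on the minus strand and holds 0 E2F strings. The Cdc6 window, chr11:98907901-98908200 on the plus strand, holds 1, and the Mcm3 window, chr1:20820263-20820562 on the minus strand, holds 2. The Mcm6 window, chr1:128359656-128359955 on the minus strand, holds 3, and the Mcm5 window, chr8:75109259-75109558 on the plus strand, holds 2. In each of these last windows a pair of strings on opposite strands shares 4 bases. The Cdt1 window, chr8:122567765-122568064 on the plus strand, holds 1, which begins at base 33 of the transcript. The 17 members with a string had a median log2 ratio of 0.069, from -0.23 to 0.23, and the 22 without one a median of 0.16, from -0.16 to 0.44. The ranges of these groups overlap, and the medians were not tested.

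The origin recognition complex binds replication origins. The log2 ratio was positive for 5 of its 6 subunit genes, against 58.2% of all genes, and for 3 at equal totals, against 44.8%. The median log2 ratio of the 6 was 0.092. Orc1, the subunit whose level varies through the cell cycle in many cells, was read at 1895 normalized counts in DGKζ-deficient and 1616 in wild-type cells, 1.17-fold higher (1.09 to 1.26). Orc2 stood at 4739 in DGKζ-deficient and 4223 in wild-type cells, and Orc6, a small subunit needed for helicase loading, at 2734 in DGKζ-deficient and 2447 in wild-type cells. Orc3 (3332 in DGKζ-deficient and 3276 in wild-type cells), Orc4 (1595 in DGKζ-deficient and 1659 in wild-type cells) and Orc5 (864 in DGKζ-deficient and 851 in wild-type cells) had intervals that include a fold of 1. That holds for the authors' scaling: at equal totals the log2 ratios were -0.065 for Orc3, -0.15 for Orc4 and -0.066 for Orc5. Orc1 relative to Orc4 gave a ratio of reads of 1.19 (1.09 to 1.30) in DGKζ-deficient and 0.974 (0.924 to 1.03) in wild-type cells. Ratios of 2 genes inside a library do not depend on the scaling, and the pairs were chosen after their values were seen.

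The loading factors CDC6 and CDT1 bring the helicase to the origin, and geminin, encoded by Gmnn, blocks CDT1 after S phase has begun. Cdt1 had the lowest log2 ratio of the 47 members and was read at 2216 normalized counts in DGKζ-deficient and 2594 in wild-type cells, a fold of 0.854 (0.802 to 0.909). Its inhibitor stood on the other side. Gmnn was read at 2259 in DGKζ-deficient and 1968 in wild-type cells, 1.15-fold higher (1.08 to 1.22). Cdt1 reads therefore numbered 0.981 per Gmnn read (0.908 to 1.06) in DGKζ-deficient cells and 1.32 (1.26 to 1.38) in wild-type cells. Cdc6, at 3433 in DGKζ-deficient and 3172 in wild-type cells, was 1.08-fold higher (1.03 to 1.14). All 3 genes kept their sign under the 3 scalings.

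The MCM helicase is a ring of 6 related subunits present in equal numbers in the protein complex. Its genes were the most abundant group: they took 34.5% of the reads of the 47 members in DGKζ-deficient and 36.4% in wild-type cells. Summed over the 6 genes, the level was 92927 normalized counts in DGKζ-deficient and 93492 in wild-type cells, a fold of 0.994 (0.984 to 1.004). Within this even sum the subunits parted. Mcm2 was read at 10048 in DGKζ-deficient and 11257 in wild-type cells, 1.12-fold lower (1.09 to 1.15). Mcm4 stood at 13205 in DGKζ-deficient and 14282 in wild-type cells, 1.08-fold lower (1.05 to 1.11), and Mcm5 at 15354 in DGKζ-deficient and 16478 in wild-type cells, 1.07-fold lower (1.05 to 1.10). The other 3 lay above the wild type by nearly the same small step, Mcm3 at 18465 in DGKζ-deficient and 17472 in wild-type cells, Mcm6 at 21976 in DGKζ-deficient and 20868 in wild-type cells, and Mcm7 at 13878 in DGKζ-deficient and 13134 in wild-type cells, with folds of 1.06, 1.05 and 1.06.

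At equal totals all 6 helicase genes had a log2 ratio below 0, with Mcm3, Mcm6 and Mcm7 between -0.015 and -0.01. The inequality among subunits holds under any scaling, since it shows inside each library. Mcm2, Mcm4 and Mcm5, a grouping made after the values were seen, supplied 41.5% of the reads of the 6 genes in DGKζ-deficient cells (exact 95% interval 41.1 to 42.0) and 44.9% in wild-type cells (44.7 to 45.2). Mcm2 reads numbered 0.544 per Mcm3 read (0.527 to 0.562) in DGKζ-deficient and 0.644 (0.633 to 0.656) in wild-type cells. These differences exceed counting error and have no replicate check.

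**Figure D2:**
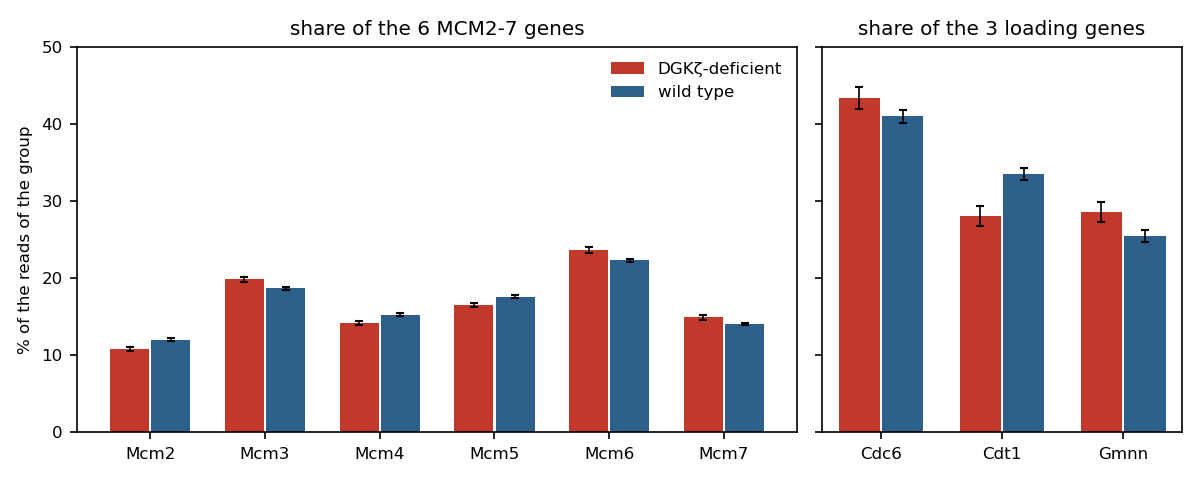
Share of each gene in the reads of its group, in percent, for the MCM helicase genes (left) and the loading genes with their inhibitor (right), DGKζ-deficient bars left of wild-type bars. Error bars are exact 95% counting intervals. Mcm2 makes up 10.8% of the helicase reads in DGKζ-deficient and 12.0% in wild-type cells, and Cdt1 makes up 28.0% of the loading reads in DGKζ-deficient and 33.5% in wild-type cells.

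Helicase activation held the member that differed most. Dbf4, the regulatory subunit without which the kinase CDC7 is inactive, was read at 3183 normalized counts in DGKζ-deficient and 2350.5 in wild-type cells, 1.35-fold higher (1.28 to 1.43). Its log2 ratio of 0.44 was higher than that of 92.2% of all genes compared, and it was still past the 25% limit at equal totals (0.35) and after recentring (0.38). Both of its transcript rows gave the same value, which is no separate check, since transcript rows of a gene share reads. The catalytic subunit gene Cdc7 was near even, at 1051 in DGKζ-deficient and 1093 in wild-type cells, with an interval that includes a fold of 1 under the authors' scaling and a log2 ratio of -0.14 at equal totals. Dbf4 reads numbered 3.03 per Cdc7 read (2.76 to 3.32) in DGKζ-deficient and 2.15 (2.03 to 2.27) in wild-type cells.

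CDC45 and the 4 GINS proteins bind the MCM ring to form the active helicase, and MCM10 helps to set it in motion. Cdc45 was read at 3591 normalized counts in DGKζ-deficient and 2984 in wild-type cells, 1.20-fold higher (1.14 to 1.27). Mcm10 stood at 4445 in DGKζ-deficient and 3921 in wild-type cells, 1.13-fold higher (1.08 to 1.19), and Gins4 at 1886 in DGKζ-deficient and 1670.0 in wild-type cells, 1.13-fold higher (1.05 to 1.21). The GINS genes differed among themselves. Gins3, the least abundant member of all with 304 reads in the DGKζ-deficient library, was read at 521 in DGKζ-deficient and 598 in wild-type cells, 1.15-fold lower (1.01 to 1.31). Gins1 (972 in DGKζ-deficient and 950.4 in wild-type cells) and Gins2 (1331 in DGKζ-deficient and 1266 in wild-type cells) had intervals that include a fold of 1.

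Polymerase α with primase lays the RNA-DNA primers of both strands. All 4 of its genes were above 0 under each of the 3 scalings. Of all genes compared, 58.2% were above 0 as deposited and 44.8% at equal totals. The 4 genes had a median log2 ratio of 0.18 as deposited and 0.088 at equal totals. Prim1, the catalytic primase subunit, was read at 3306 normalized counts in DGKζ-deficient and 2713 in wild-type cells, 1.22-fold higher (1.16 to 1.29). Prim2, the large primase subunit, stood at 2915 in DGKζ-deficient and 2556 in wild-type cells, 1.14-fold higher (1.08 to 1.21). The polymerase subunit genes Pola1 (6551 in DGKζ-deficient and 5840.3 in wild-type cells) and Pola2 (3679 in DGKζ-deficient and 3391 in wild-type cells) had folds of 1.12 and 1.08. Pola1 lies on the X chromosome, and the libraries differ in sex by Xist and Y-linked genes. The part of sex in the Pola1 value was not tested. Pola2 was the member whose transcript rows differed most, with log2 ratios of 0.066 and 0.12. Prim1 supplied 20.1% (19.3 to 20.9) of the reads of the 4 genes in DGKζ-deficient and 18.7% (18.2 to 19.2) in wild-type cells, while the intervals of the other shares overlapped.

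Polymerase δ copies mainly the lagging strand and polymerase ε the leading strand. Their catalytic subunit genes were close to even under the authors' scaling. At equal totals the log2 ratio was -0.12 for Pold1 and 0.0046 for Pole. Pold1 was read at 5845 normalized counts in DGKζ-deficient and 5956 in wild-type cells, and Pole at 8728 in DGKζ-deficient and 8175 in wild-type cells, with folds of 0.981 (0.944 to 1.02) and 1.07 (1.03 to 1.10). The accessory subunit genes of polymerase δ among the members had folds above 1: Pold2 at 3953 in DGKζ-deficient and 3309 in wild-type cells, 1.19-fold (1.138 to 1.254), and Pold3 at 3128 in DGKζ-deficient and 2766 in wild-type cells, 1.13-fold (1.07 to 1.19). The gene of its small subunit, Pold4, which is in the wider list, is not a member and was named after its values were seen, had 304 in DGKζ-deficient and 348 in wild-type cells, a fold of 0.872 (0.733 to 1.03). Pole2, an accessory subunit of polymerase ε, had 1266 in DGKζ-deficient and 1312 in wild-type cells, an interval that includes a fold of 1 under the authors' scaling and a log2 ratio of -0.14 at equal totals.

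PCNA is the ring-shaped clamp that holds the polymerases on DNA, and the 5 RFC subunits open and close it. Pcna was read at 14672 normalized counts in DGKζ-deficient and 14040.3 in wild-type cells, a fold of 1.04 (1.02 to 1.07), and had a log2 ratio of -0.026 at equal totals. Rfc5 had the highest fold in the loader, with 4106 in DGKζ-deficient and 3407 in wild-type cells, 1.21-fold higher (1.15 to 1.26). Rfc1, the large subunit, had 6546 in DGKζ-deficient and 5785 in wild-type cells, 1.13-fold higher (1.09 to 1.17). The remaining loader genes were near even, Rfc2 at 3521 in DGKζ-deficient and 3332 in wild-type cells, Rfc3 at 2169 in DGKζ-deficient and 2173 in wild-type cells, and Rfc4 at 2320.4 in DGKζ-deficient and 2230.3 in wild-type cells. Rfc5 thus made up 12.3% (11.9 to 12.8) of the reads of the clamp and loader genes in DGKζ-deficient and 11.0% (10.7 to 11.3) in wild-type cells.

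RPA coats the single strands exposed by the helicase. Its 3 genes had log2 ratios above 0 under each scaling, with a median of 0.20 as deposited and 0.11 at equal totals. Of all genes compared, 58.2% were above 0 as deposited and 44.8% at equal totals. Rpa2, the subunit phosphorylated when forks stall, was read at 3932 normalized counts in DGKζ-deficient and 3224 in wild-type cells, 1.22-fold higher (1.16 to 1.28). Rpa1, the large DNA-binding subunit, stood at 9383 in DGKζ-deficient and 8156 in wild-type cells, 1.15-fold higher (1.11 to 1.19), and Rpa3 at 885 in DGKζ-deficient and 787 in wild-type cells, 1.13-fold higher (1.015 to 1.246). Summed over the 3 genes, RPA was 1.17-fold higher (1.14 to 1.20), the highest fold of any role group here.

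Behind the fork, FEN1 trims the flaps of Okazaki fragments and DNA ligase I, encoded by Lig1, seals them. Fen1 was read at 6559.8 normalized counts in DGKζ-deficient and 6089 in wild-type cells, and Lig1 at 5387 in DGKζ-deficient and 5062 in wild-type cells, folds of 1.08 and 1.06, of which Lig1 was just below 0 at equal totals. The chromatin genes were also near even. UHRF1 reads hemimethylated DNA and recruits the maintenance methyltransferase DNMT1, and their genes stood at 13854 in DGKζ-deficient and 13202 in wild-type cells (Uhrf1) and 18721 in DGKζ-deficient and 17974 in wild-type cells (Dnmt1), folds of 1.05 and 1.04. CAF-1 places histones on new DNA, and its subunit genes Chaf1a (2648 in DGKζ-deficient and 2782 in wild-type cells) and Chaf1b (2543 in DGKζ-deficient and 2283 in wild-type cells) had folds of 0.952 (0.898 to 1.01) and 1.11 (1.05 to 1.18). At equal totals the log2 ratio was -0.16 for Chaf1a and 0.066 for Chaf1b.

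Levels of different genes can be compared only per length, and normalized counts were divided by the length in kb of the matching GENCODE M21 transcript, found for all 47 members. Pcna had the highest level, 9665 per kb in DGKζ-deficient and 9249 in wild-type cells, and Gins3 the lowest, 207 in DGKζ-deficient and 237 in wild-type cells. By this measure subunits of complexes with equal protein numbers were unequal in RNA. The GINS genes ranged from 207 (Gins3) to 1398 (Gins4) per kb in DGKζ-deficient and from 237 to 1238 in wild-type cells. These levels rest on 1 transcript length per gene, within GINS from 1087 bases for Gins1 to 3900 for Gins2. Other lengths were not tried. In the origin recognition complex Orc6 stood highest, at 2124 in DGKζ-deficient and 1902 in wild-type cells per kb, and Orc4 and Orc5 lowest, at 392.3 in DGKζ-deficient and 408 in wild-type cells (Orc4) and 411 in DGKζ-deficient and 405 in wild-type cells (Orc5). The order of the helicase genes was Mcm6, Mcm3, Mcm7, Mcm5, Mcm4 and Mcm2 in DGKζ-deficient cells, and the same in wild-type cells but for Mcm5 (4874 per kb) above Mcm7 (4434). In DGKζ-deficient cells Mcm7 had 4685 and Mcm5 4541 per kb. Across the 47 genes Spearman's rho of the log2 ratio was 0.043 with mean level and -0.23 with transcript length, given as descriptions over genes that share both libraries.

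**Figure D3:**
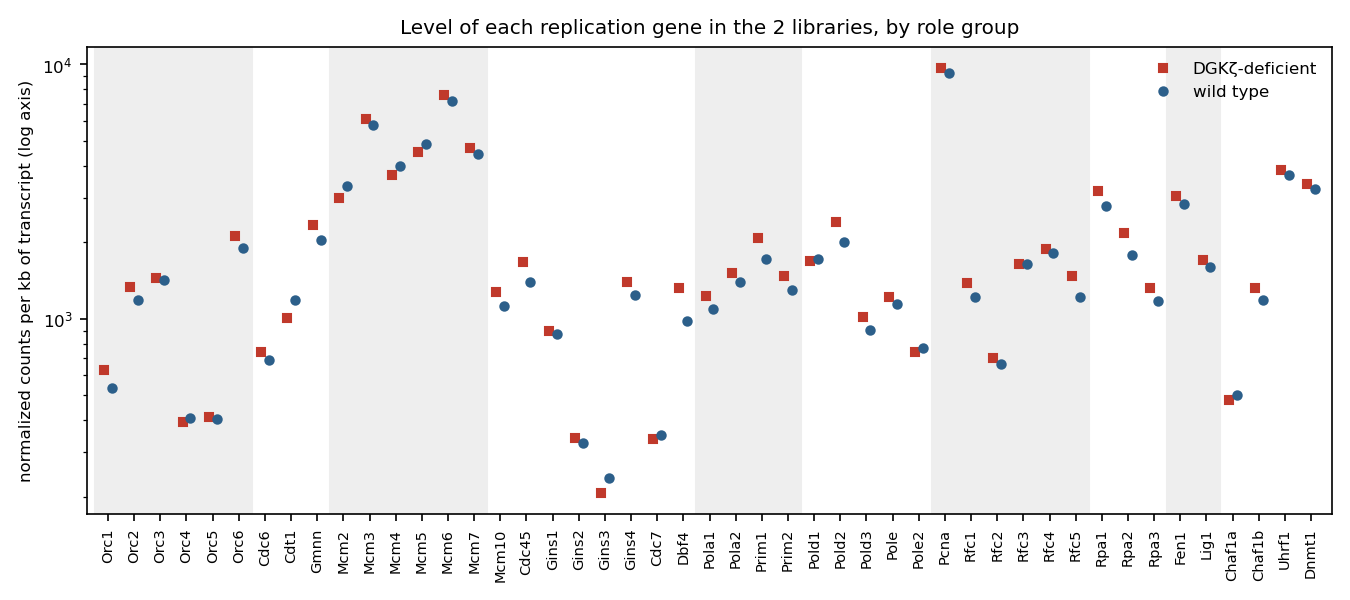
Normalized counts per kb of transcript (log axis) of the 47 replication genes in the DGKζ-deficient (red squares) and wild-type (blue circles) library, with grey bands separating role groups. Levels range from 207 per kb for Gins3 to 9665 for Pcna in DGKζ-deficient cells, and the symbols of a gene lie close together for nearly every gene.

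Of 45 other replication genes, 34 were above 0, against 58.2% of all genes, and 21 at equal totals, against 44.8%. Their median log2 ratio was 0.078. By the 25% limit 5 of them were higher, against 13.8% of all genes, and 1 was lower, against 12.8%. Top2a, the topoisomerase that untangles finished chromosomes and peaks late in the cycle, was read at 37994 normalized counts in DGKζ-deficient and 25721 in wild-type cells, 1.48-fold higher (1.453 to 1.501). Mtbp, a partner of the origin-firing factor TICRR, stood at 2193 in DGKζ-deficient and 1627 in wild-type cells, 1.35-fold higher (1.26 to 1.44), close to the fold of Dbf4. Pole3, a small histone-fold subunit of polymerase ε, had 1158 in DGKζ-deficient and 889 in wild-type cells, 1.30-fold higher (1.19 to 1.43). Tonsl, which guards histones and damaged forks, had 761 in DGKζ-deficient and 1072 in wild-type cells, 1.41-fold lower (1.27 to 1.57).

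Genes of mitosis, the stage that follows replication, had a higher median in the same libraries. All 38 mitotic genes, listed under 39 names of which Casc5 and Knl1 are 1 gene, were above 0, against 58.2% of all genes. Their median log2 ratio was 0.56 (0.47 at equal totals), and 33 were at least 25% higher, against 13.8% of all genes. Nusap1, which encodes a spindle protein, was the 1 mitotic gene past 2-fold on the log2 scale used, against 1.30% of all genes that were 2-fold higher, at 3048 normalized counts in DGKζ-deficient and 1487 in wild-type cells. Ube2c (0.99), Ccnb2 (0.98) and Hmmr (0.97) followed it in log2 ratio. The largest log2 ratio of any replication member, 0.44 for Dbf4, is below the mitotic median. The difference between the lists has no replicate check and was not tested.

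**Figure D4:**
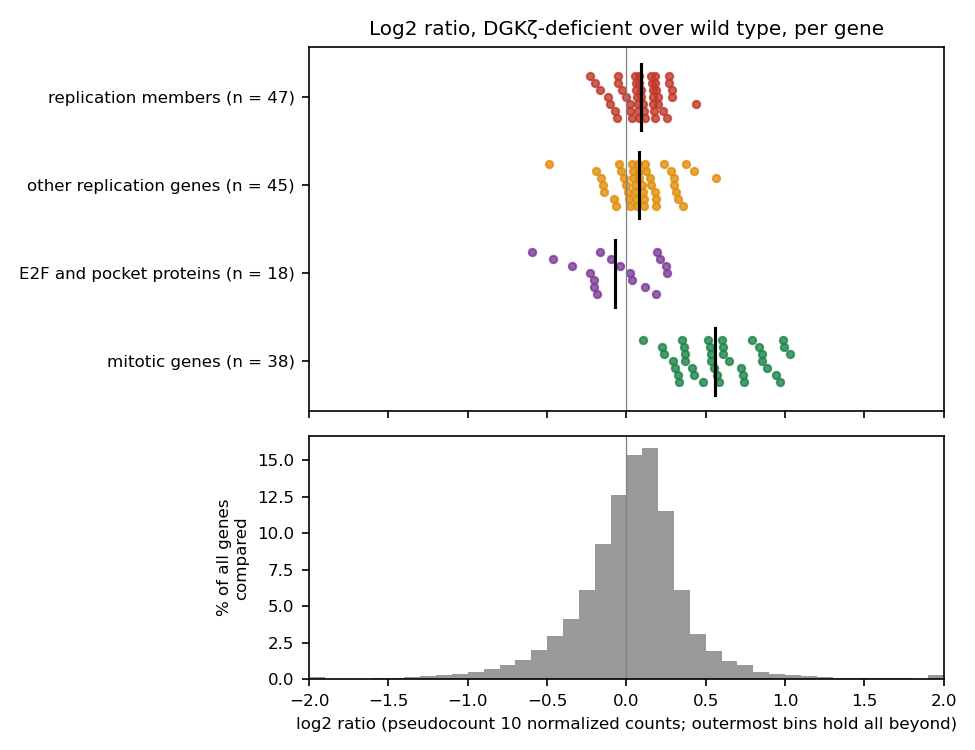
Log2 ratio of DGKζ-deficient over wild-type cells for each gene of 4 lists (upper panel, points are genes, black bars are medians) and the distribution over all 10518 genes compared (lower panel, percent of genes per bin of 0.1). The replication members lie between -0.23 and 0.44 with a median of 0.089, and the mitotic genes between 0.11 and 1.03 with a median of 0.56.

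Several facts of the libraries bear on all of these values. Summed over the 1 row kept per gene, recovered reads numbered 13464169 in the DGKζ-deficient and 37211969 in the wild-type library. The members had between 304 and 35789 reads in a library. Dgkz was read at 2591 normalized counts in the DGKζ-deficient and 6714 in the wild-type library, 2.59-fold lower (2.46 to 2.74). Xist stood at 9206 in DGKζ-deficient and 14.0 in wild-type cells, and the 4 Y-linked genes tested had 0 reads in the DGKζ-deficient library and 921 to 2192 normalized counts in the wild-type library, so sex and genotype cannot be told apart. CD8 T cell markers were abundant (Cd8a at 8455 in DGKζ-deficient and 13090.5 in wild-type cells), with 9 of 10 found and log2 ratios from -0.87 for Cd3g and -0.63 for Cd8a to 0.29 for Cd2. B cell markers summed to 2355 normalized counts in the DGKζ-deficient and 3222 in the wild-type library. The 9 of 12 that were compared were all below 0, while 58.2% of all genes were above 0. The lists for other cells were low: CD4 and regulatory T cells 427 in DGKζ-deficient and 510.2 in wild-type cells, myeloid cells 286 in DGKζ-deficient and 304 in wild-type cells, neutrophil and erythroid cells 60.0 in DGKζ-deficient and 76.4 in wild-type cells. The CD4 and regulatory T cell genes went different ways. Cd4 had 53.2 in DGKζ-deficient and 171 in wild-type cells, and Foxp3 321 in DGKζ-deficient and 262 in wild-type cells. Zbtb7b had 48.0 in DGKζ-deficient and 57.1 in wild-type cells, and Cd40lg 5.14 in DGKζ-deficient and 20.4 in wild-type cells. NK markers summed to 3735 in DGKζ-deficient and 3534 in wild-type cells, of which Eomes and Nkg7, also expressed by activated CD8 T cells, made up most, and Ncr1, Klrb1c and Klra8 were at 0 reads in the DGKζ-deficient library. Within this sum Eomes was higher in DGKζ-deficient cells (1861, against 956 in wild-type cells). Nkg7 (1734 against 2163), Klrd1 (134 against 395) and Klre1 (6.86 against 9.33) were lower. The part of these differences in the replication gene values was not tested.

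The authors' deposited table, with 1 library per genotype, gives the 47 members log2 fold changes from -0.17 for Cdt1 to 0.32 for Dbf4, of which 36 are above 0. Over all rows of that table the largest absolute log2 fold change is 0.67, while Xist has a log2 ratio of 8.59 as computed here. The scales are therefore not alike. Its p-values rest on 1 library per genotype, cannot show that the members are equal, and are not given.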

How the data were processed

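RNA was measured in 1 DGKζ-deficient and 1 wild-type library of stimulated CD8+ T cells. Per the submitters' processing notes, STAR version 2, DESeq and the build mm9 were used, with no role stated, and the counting program is not given in the sources used here. Per the labels' protocols, the NEBNext Ultra kit was used, which does not mark strand.

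The authors deposited normalized counts, a signal in which the reads of each library were divided by its size factor. In both libraries 100% of values were whole multiples of 1 step (relative tolerance 0.0001), which returned the whole reads (size factors 0.583 for the DGKζ-deficient and 1.71 for the wild-type library). The authors deposited a second table of log2 fold changes, test scores, p-values and adjusted p-values. Its log2 fold changes are quoted only as theirs, and its scores and p-values were not used.

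The table has 33018 transcript rows, of which 1 with shifted values was left out. Each gene was represented by its row with the highest mean, since transcript rows of a gene share reads. With no replicates, no count test has residual degrees of freedom, so none was run. Log2 ratios use a pseudocount of 10 normalized counts, which understates changes of low genes; folds use none. Intervals are exact Clopper-Pearson 95% intervals on recovered reads (Python 3.11.15, SciPy 1.17.1), checked on simulated data. Transcript lengths are from GENCODE M21 and promoters from RefSeq GRCm38.p6, matched by accession and symbol, so no mm9 position is used. Members, lists and the naming rule (every member; the 4 genes of another list with the largest absolute log2 ratio, where that list is described, and any past 2-fold) were chosen with earlier results of these data known. Protein sequences, planned as a description, were not used here.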

Additional observations from a re-analysis of the deposited data

How the results depend on the processing

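No paired analysis was possible because there is 1 library per genotype, and for the same reason no replicate could be left out. The number of members that differed by 25% (1), 1.5-fold (0) and 2-fold (0) was the same under all 9 alternatives tried: equal totals, recentring, pseudocounts of 1 and 100, no minimum, minimum means of 200 and of 500 (the last chosen after seeing the data), the lowest transcript row and the sum of rows. Scaling changed the rest. At equal totals the median log2 ratio of the members was -0.00016 and 23 members were above 0, and after recentring the median was 0.035 with 33 above 0. In the other 7 alternatives the median lay between 0.080 and 0.090 with 36 above 0. The single values of 33 members left their counting interval at equal totals and those of 14 did so after recentring. The interval width limits folds of members with few reads, as for Gins3 and Rpa3.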

Other observations

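The E2F transcription factors and their pocket protein partners control many replication genes. The list of 18 genes used here also holds Lin9, Lin37, Lin52, Lin54 and Mybl2, which encode neither E2F factors nor pocket proteins. Of the 18 genes 8 had a log2 ratio above 0, against 58.2% of all genes, and 6 at equal totals, against 44.8%. Lin9 (0.19), Lin52 (0.19), Lin54 (0.21) and Mybl2 (0.034) were among those above 0, and Lin37 (-0.040) was below. The median log2 ratio of the 18 genes was -0.069. By the 25% limit 3 were lower, against 12.8% of all genes, and 0 were higher, against 13.8%. E2f7, a repressor of E2F targets late in S phase, was read at 223 normalized counts in DGKζ-deficient and 342 in wild-type cells, 1.54-fold lower (1.27 to 1.87). Rbl2, which encodes the pocket protein p130 of quiescent cells, stood at 600.2 in DGKζ-deficient and 832 in wild-type cells, 1.39-fold lower (1.23 to 1.56). E2f3, an activator, had 1273 in DGKζ-deficient and 1617 in wild-type cells, 1.27-fold lower (1.17 to 1.38). E2f2, another activator, lay on the other side at 1394 in DGKζ-deficient and 1164 in wild-type cells, 1.20-fold higher (1.10 to 1.30). The libraries differ in sex and age as well as genotype, and the part of these in the E2F values was not tested.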
